A study of Homo sapiens with 10 samples.

Results

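The genes described here are 8 genes of the prostate epithelial lineage, KLK2, KLK3, TMPRSS2, FOXA1, FOLH1, STEAP1, STEAP2 and AMACR. They were chosen by name, with earlier results of these data known, and make up 8 of the 23170 gene entries and 24 of the 37557 isoform entries in the deposited RNA-seq tables. The 10 samples sequenced come from lines made from PC3, which are human prostate cancer cells, here grown in medium with fetal bovine serum. PC3-Epi (2 samples) was selected from luciferase-expressing PC3 cells for bioluminescence and epithelial shape. PC3-EMT14 (3 samples) is a single mesenchymal population recovered after PC3-Epi cells had been cultured with human macrophages. For PC3-EMT14-OVOL1 (3 samples), PC3-EMT14 was transduced with a lentivirus that expresses OVOL1, and for PC3-EMT14-OVOL2 (2 samples) with one that expresses OVOL2, both zinc finger transcription factors of epithelial cells. All 4 lines therefore descend from the luciferase-expressing cells, and the labels of the reference group, PC3-EMT14, name no control vector.

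In the prostate, luminal epithelial cells secrete kallikrein proteases and other proteins of the seminal fluid, and many of their genes respond to androgen. FOXA1 is a forkhead factor that opens chromatin at such genes, and the androgen-bound receptor binds nearby response elements. Several products of the lineage are used clinically: KLK3 is prostate-specific antigen, FOLH1 is prostate-specific membrane antigen, and AMACR is stained for in biopsies. PC3 is known as a line that grows without androgen.

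Levels are in FPKM (fragments per kilobase of transcript, here scaled by the upper quartile of each library's transcript-compatible fragments). The samples of a group are combined, so a gene has 1 value for each group in a comparison. There was therefore no spread between samples, no test could be made over samples, and the depth behind a value is unknown. A gene was counted as higher or lower where the ratio of its FPKM values was at least 2 and the higher group had at least 1 FPKM. Levels of PC3-EMT14 are those of its comparison with PC3-Epi unless another comparison is named. Each comparison was normalized separately, and the same group differed between tables by a median ratio of 0.989 to 1.02. All 3 comparisons with PC3-EMT14 share that group's samples, so their values stand side by side and are not independent.

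The targeted genes followed their labels. OVOL1 was at 11.3 FPKM in PC3-EMT14-OVOL1 against 0.0238 in PC3-EMT14, and OVOL2 was at 831 FPKM in PC3-EMT14-OVOL2 against 0.370 in PC3-EMT14. PC3-Epi had 4.25 FPKM of OVOL1 and 9.91 FPKM of OVOL2.

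Of the 8 genes, 5 had at least 1 FPKM in some line, namely FOXA1, STEAP1, AMACR, STEAP2 and TMPRSS2. FOLH1 stayed under 1 FPKM in every line, and KLK2 and KLK3 were listed at 0 in every line. Between PC3-Epi and PC3-EMT14, 1 of the 8 genes was past 2-fold, and this was TMPRSS2, which was higher in PC3-Epi. Across all 12441 gene entries over the floor in that comparison, 7.37% were higher and 8.34% were lower in PC3-Epi. None of the 8 genes was past 2-fold with OVOL1, where 2.43% of all entries over the floor were higher and 1.54% lower. None was past 2-fold with OVOL2, where 4.42% were higher and 2.93% lower, or between the OVOL2 and OVOL1 lines, where 1.9% were higher and 1.17% lower with OVOL2. TMPRSS2 passed the floor of the PC3-Epi comparison only through PC3-Epi, since PC3-EMT14 was under 1 FPKM.

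**Figure D1:**
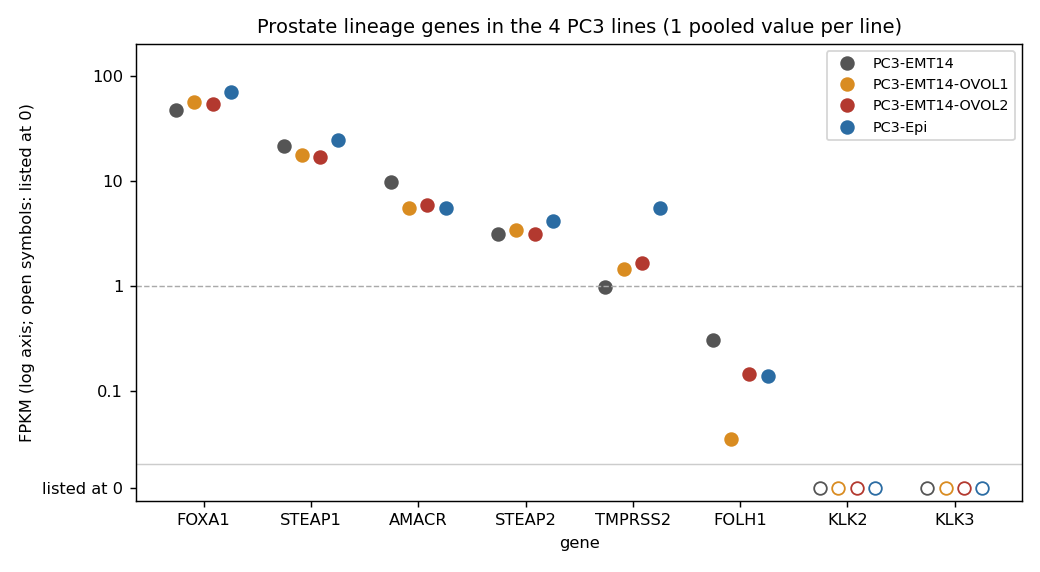
FPKM (log axis) of the 8 prostate lineage genes in the 4 lines, with 1 point for the authors' pooled value of each line; open symbols are genes listed at 0, and the dashed line is 1 FPKM. FOXA1 lay highest in every line, between 46.6 and 69.5 FPKM, and TMPRSS2 in PC3-Epi stood apart from the other 3 lines.

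KLK3 and KLK2 are neighbouring genes for secreted proteases and are the textbook examples of androgen-driven transcription in the prostate. On hg19 the KLK3 entry covers chr19:51358171-51364020 and the KLK2 entry chr19:51376689-51383823, both on the plus strand. Their promoters are shown because an androgen response element lies close to each start site and because both genes were listed at 0 in these tables. The sequences are from RefSeq on GRCh38.p14, from 250 bases before to 50 bases after the start, at chr19:50854665-50854964 for KLK3 and chr19:50873189-50873488 for KLK2, both on the plus strand. Capitals mark GAACA and AGTGCT with the 3 bases between them, which the elements have in common and which were chosen as a pattern after the sequences were seen.
KLK3: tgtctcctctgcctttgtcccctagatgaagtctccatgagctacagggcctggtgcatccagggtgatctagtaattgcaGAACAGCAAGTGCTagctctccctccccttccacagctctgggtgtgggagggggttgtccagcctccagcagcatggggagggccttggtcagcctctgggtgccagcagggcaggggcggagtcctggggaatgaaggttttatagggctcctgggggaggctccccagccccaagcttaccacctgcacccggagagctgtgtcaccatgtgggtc
KLK2: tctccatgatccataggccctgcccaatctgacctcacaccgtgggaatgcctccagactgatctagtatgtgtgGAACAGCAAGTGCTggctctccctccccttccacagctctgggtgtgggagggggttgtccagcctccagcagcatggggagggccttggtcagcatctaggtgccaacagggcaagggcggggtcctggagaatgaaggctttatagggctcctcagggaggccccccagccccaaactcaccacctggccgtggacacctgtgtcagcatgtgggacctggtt

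Both promoters carried GAACAGCAAGTGCT on the plus strand, at positions -169 to -156 from the start in KLK3 and -175 to -162 in KLK2. GAACA followed after any 3 bases by AGTGCT, searched on both strands, was present in 15 of 35116 RefSeq promoters of the same length, or 0.0427%. The aligned KLK3 and KLK2 promoters had the same base in 245 of 309 columns (79.3%), with a longest shared run of 80 bases. The table held promoters for 6 of the 8 genes and 7 promoters in all, with 2 for STEAP2, and had none for TMPRSS2 and FOLH1. The palindromic element, AGAACA and TGTTCT with any 3 bases between, was in none of the 7 and in 0.00285% of all promoters. The letters AGAACA were in the KLK3 promoter alone among the 7, where they overlap the marked letters, and in 14.8% of all promoters. The forkhead letters TGTTTAC were in 1 of the 7, a STEAP2 promoter, against 3.42% of all. CACCTG, the E-box bound by ZEB1 and other repressors of epithelial genes, was in 4 of the 7 (KLK3, KLK2, FOXA1 and STEAP1), against 20.6% of all. CCGTTA, a core recognised by OVOL proteins, was in none of the 7, against 3.07% of all. A match is a stretch of letters and not a measured site.

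KLK3 was listed at 0 FPKM in each of the 4 lines, in each of its 4 isoform entries. KLK2 was likewise listed at 0 in all 4 lines, in both isoform entries. No fold change was formed for either gene. A value of 0 was common in these tables, since 2604 of 21985 entries on assembled chromosomes (11.8%) were at 0 in every table, whereas 0 of 10 housekeeping genes looked up were at 0 in any line. Around the pair, 21 of the 47 gene entries within 500 kb of KLK2 had at least 1 FPKM in some line.

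The kallikrein cluster holds 15 genes in a row on chromosome 19, and 3 adjacent ones, KLK15, KLK3 and KLK2, were listed at 0 in all lines. Another 7 reached 1 FPKM. KLK5 and KLK6, proteases of skin and other surface epithelia, were highest in PC3-Epi. KLK5 was 0.687 FPKM in PC3-EMT14, 48.6 in PC3-Epi, 1.31 in PC3-EMT14-OVOL1 and 1.28 in PC3-EMT14-OVOL2. KLK6 was 2.20, 47.7, 3.57 and 6.88 FPKM in the same order. The OVOL lines were thus closer to PC3-EMT14 than to PC3-Epi for both genes. KLK8 was 0.141 FPKM in PC3-EMT14, 2.42 in PC3-Epi, 0.274 in PC3-EMT14-OVOL1 and 0.352 in PC3-EMT14-OVOL2.

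KLK10 and KLK11, by contrast, were highest in PC3-EMT14 and lowest in PC3-Epi. KLK10 was 6.26 FPKM in PC3-EMT14, 0.659 in PC3-Epi, 2.82 in PC3-EMT14-OVOL1 and 2.53 in PC3-EMT14-OVOL2. KLK11 was 4.31, 0.467, 2.17 and 3.04 FPKM in the same order. KLK4, a kallikrein of luminal prostate cells that responds to androgen, was 1.10 FPKM in PC3-EMT14 and 0.306 in PC3-Epi, 0.366 in PC3-EMT14-OVOL1 and 0.461 in PC3-EMT14-OVOL2. KLK14 was 1.42, 0.476, 0.858 and 0.933 FPKM. Of 14 kallikrein relatives listed, 7 were over the floor between PC3-Epi and PC3-EMT14, with 3 higher and 4 lower in PC3-Epi. The list includes KLKB1, which is outside the cluster and was at 0 in every line. The median log2 ratio was -1.58. In that comparison KLK4, KLK10, KLK11 and KLK14 passed the floor only through PC3-EMT14, and KLK5 and KLK8 only through PC3-Epi. With OVOL1, 6 were over the floor, with 0 higher and 2 lower (KLK4 and KLK10) and a median of -0.83. With OVOL2, 6 were over the floor, with 1 higher (KLK6) and 2 lower (KLK4 and KLK10) and a median of -0.51. Over all gene entries over the floor the medians were -0.01, -0.00 and -0.04 in these 3 comparisons. The shares of those entries were 7.37% higher and 8.34% lower in PC3-Epi, 2.43% and 1.54% with OVOL1, and 4.42% and 2.93% with OVOL2. Several kallikreins were admitted only by the line where they were high, and they went opposite ways. The kallikrein medians therefore do not describe a shift of the family.

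**Figure D2:**
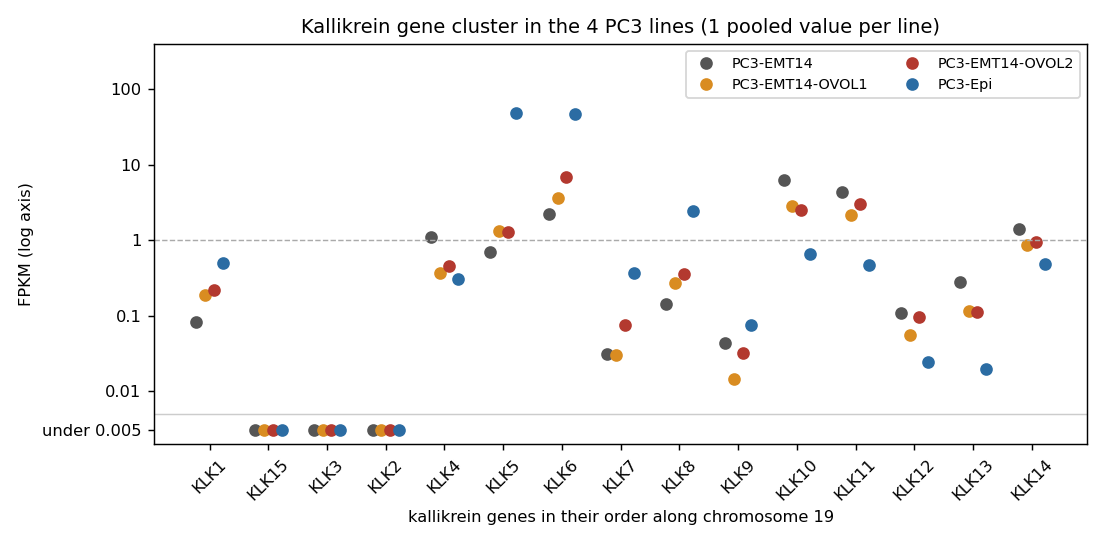
FPKM (log axis) of the 15 kallikrein genes in their order along chromosome 19, with 1 point for the authors' pooled value of each of the 4 lines; the dashed line is 1 FPKM, and the points at the bottom are at 0. KLK15, KLK3 and KLK2 were at 0 throughout, KLK5 and KLK6 were above 47 FPKM in PC3-Epi, and KLK10 and KLK11 were highest in PC3-EMT14.

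TMPRSS2 encodes a transmembrane serine protease of prostate and airway epithelium, whose androgen-driven promoter is the one joined to ERG in many prostate tumors. Its entry covers chr21:42836478-42880085 on the minus strand of hg19. TMPRSS2 was 0.967 FPKM in PC3-EMT14, 5.50 in PC3-Epi, 1.43 in PC3-EMT14-OVOL1 and 1.66 in PC3-EMT14-OVOL2. PC3-Epi was 5.69-fold above PC3-EMT14 (2.51 on the log2 scale), and because PC3-EMT14 was under 1 FPKM the log2 ratio was 1.72 with a pseudocount of 1 FPKM. Both OVOL lines lay between, nearer to PC3-EMT14. PC3-EMT14-OVOL1 was 1.51-fold (log2 0.60) and PC3-EMT14-OVOL2 1.78-fold (log2 0.83) above PC3-EMT14 in their own comparisons, both under the 2-fold rule. The OVOL2 line exceeded the OVOL1 line by 0.23 on the log2 scale. In bulk RNA, a larger share of cells that express a gene and more RNA in each of them cannot be told apart. Even in PC3-Epi, TMPRSS2 was above only 28.5% of the genes with at least 1 FPKM, and in the OVOL lines above 4.35% and 6.34%.

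The 2 isoform entries of TMPRSS2 behaved unlike each other. TCONS_00022066 was 0.141 FPKM in PC3-EMT14, 1.67 in PC3-Epi, 0.413 in PC3-EMT14-OVOL1 and 1.27 in PC3-EMT14-OVOL2. TCONS_00022067 was 0.826, 3.83, 1.02 and 0.388 FPKM in the same order. With OVOL2 the first entry was thus 9.34-fold higher than in PC3-EMT14 and the second 2.06-fold lower. TCONS_00022066 made up 14.6% of the gene's FPKM in PC3-EMT14, 30.4% in PC3-Epi, 28.8% in PC3-EMT14-OVOL1 and 76.6% in PC3-EMT14-OVOL2. Only in PC3-EMT14-OVOL2 was it the larger part. By the 2-fold rule applied to isoform entries of the 8 genes, both TMPRSS2 entries were higher and 1 AMACR entry was lower in PC3-Epi, where 9.03% of all isoform entries over the floor were higher and 9.95% lower. None was past 2-fold with OVOL1, where 3.17% of all were higher and 2.48% lower. With OVOL2, TCONS_00022066 of TMPRSS2 was higher and 1 AMACR entry was lower, where 5.49% of all were higher and 4.59% lower. Between the OVOL lines, TCONS_00022066 was higher and TCONS_00022067 lower with OVOL2, where 2.88% of all were higher and 2.55% lower. Each TMPRSS2 entry counted here passed the floor only through its higher line, as did the AMACR entry in PC3-Epi. The TMPRSS2 values are pooled estimates of a gene under 2 FPKM outside PC3-Epi, and the tables do not pair the entries with named transcripts.

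AMACR is shown beside TMPRSS2 in the plot of isoform entries because it has the most entries of the 8 genes.

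**Figure D3:**
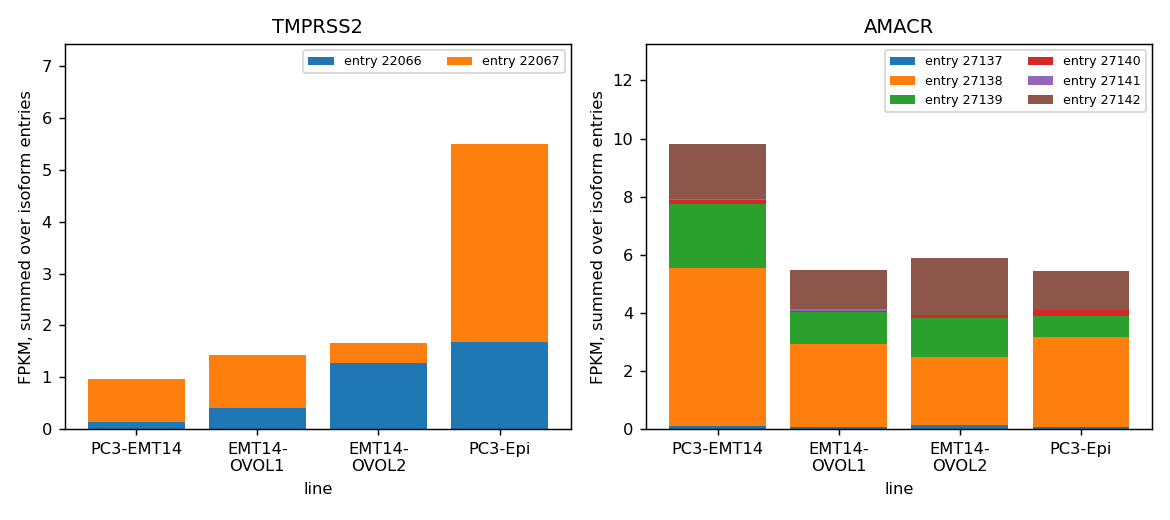
FPKM of the isoform entries of TMPRSS2 (left) and AMACR (right), stacked to the gene's total in each of the 4 lines, from the authors' pooled values; colors are entries, named by the last digits of their identifiers. The TMPRSS2 total was largest in PC3-Epi and TCONS_00022066 was the larger part in PC3-EMT14-OVOL2, while the AMACR total was largest in PC3-EMT14.

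Among relatives of TMPRSS2, 12 type II transmembrane serine protease genes were listed and 2 were over the floor between PC3-Epi and PC3-EMT14, both higher in PC3-Epi. Both passed the floor only through PC3-Epi, and 7.37% of all entries over the floor were higher and 8.34% lower in that comparison. ST14, which encodes matriptase, was 0.532 FPKM in PC3-EMT14, 135 in PC3-Epi, 28.9 in PC3-EMT14-OVOL1 and 55.8 in PC3-EMT14-OVOL2. Unlike TMPRSS2, ST14 was past 2-fold in both OVOL lines, where it was the only listed relative over the floor. It passed the floor there only through the OVOL line. Of all entries over the floor, 2.43% were higher and 1.54% lower with OVOL1, and 4.42% and 2.93% with OVOL2. TMPRSS13 was 0.00571 FPKM in PC3-EMT14, 1.17 in PC3-Epi, 0 in PC3-EMT14-OVOL1 and 0.00518 in PC3-EMT14-OVOL2.

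The genes whose log2 ratios against PC3-EMT14 were nearest to those of TMPRSS2, by Euclidean distance over the 3 comparisons among 12445 genes with at least 1 FPKM in some line, were FGD3, GATA3 and LIPG. FGD3 was at a distance of 0.0656, with log2 ratios of 2.50 in PC3-Epi, 0.66 with OVOL1 and 0.82 with OVOL2. GATA3, a zinc finger factor of luminal epithelia, was at 0.145, and LIPG, an endothelial-type lipase, at 0.243. Some gene is always nearest, and a distance over 3 ratios with a common denominator does not show shared control.

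Of 13 gene entries within 500 kb of TMPRSS2, 6 had at least 1 FPKM in some line and none overlapped it. The nearest, MX1, an interferon-induced GTPase, lies 5.34 kb away and was 2.52 FPKM in PC3-EMT14, 14.1 in PC3-Epi, 2.42 in PC3-EMT14-OVOL1 and 9.54 in PC3-EMT14-OVOL2. MX1 and TMPRSS2 were alike in PC3-Epi, at log2 ratios of 2.48 and 2.51. They were unlike with OVOL2, where MX1 was at 1.97 and TMPRSS2 at 0.83. C2CD2, on the other side, was 45.1 FPKM in PC3-EMT14, 12.3 in PC3-Epi, 34.3 in PC3-EMT14-OVOL1 and 18.2 in PC3-EMT14-OVOL2.

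FOXA1 was the most abundant of the 8 genes in every line. Its entry covers chr14:38059191-38064489 on the minus strand of hg19. FOXA1 was 46.6 FPKM in PC3-EMT14, 69.5 in PC3-Epi, 55.7 in PC3-EMT14-OVOL1 and 53.9 in PC3-EMT14-OVOL2. It was 1.49-fold higher in PC3-Epi, 1.22-fold higher with OVOL1 and 1.19-fold higher with OVOL2, all under the 2-fold rule. The level exceeded that of 84.8% to 89.6% of genes with at least 1 FPKM. The OVOL2 and OVOL1 lines differed by -0.03 on the log2 scale, and this sign turned to 0.01 when ratios were centred on the median gene and to 0.03 when FPKM was rescaled to a common sum.

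FOXA2, the relative of FOXA1 in liver, gut and neuroendocrine cells, was highest in PC3-EMT14 and lowest in PC3-Epi, where FOXA1 was lowest and highest. FOXA2 was 24.1 FPKM in PC3-EMT14, 2.22 in PC3-Epi, 15.3 in PC3-EMT14-OVOL1 and 10.7 in PC3-EMT14-OVOL2. The log2 ratio to PC3-EMT14 was -3.44 in PC3-Epi, -0.62 with OVOL1 and -1.13 with OVOL2. FOXA1 was thus 1.93 times FOXA2 in PC3-EMT14, 3.64 times with OVOL1, 5.06 times with OVOL2 and 31.3 times in PC3-Epi, on the FPKM scale. FOXA3 stayed under 1 FPKM. Of the 3 gene entries within 500 kb of FOXA1, the closest was MIPOL1 at 38.7 kb, with 5.11 FPKM in PC3-EMT14, 4.08 in PC3-Epi, 4.72 in PC3-EMT14-OVOL1 and 3.44 in PC3-EMT14-OVOL2.

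A list of 24 cofactors of androgen-driven transcription was described beside FOXA1. Between PC3-Epi and PC3-EMT14, 23 were over the floor, with 2 higher and 2 lower in PC3-Epi and a median log2 ratio of 0.03 against -0.01 over all gene entries. The higher ones were GRHL2, an epithelial factor that was 0.106 FPKM in PC3-EMT14 and 15.0 in PC3-Epi, and GATA3, at 1.02 and 5.46 FPKM. The lower ones were HOXB13 and ETV1, and ETV1, an ETS factor, was 9.91 FPKM in PC3-EMT14 and 4.70 in PC3-Epi. With OVOL1, 22 were over the floor and none was past 2-fold, and the median was -0.16 against -0.00 over all entries. GRHL2 passed the floor only through PC3-Epi, and was under it and not counted with either OVOL. GRHL2 was 0.104 FPKM in PC3-EMT14 and 0.556 with OVOL1, and 0.102 and 0.544 in the comparison with OVOL2. With OVOL2, 22 were over the floor and HOXB13 was the one past 2-fold, with a median of -0.14 against -0.04. Of all entries over the floor, 7.37% were higher and 8.34% lower in PC3-Epi, 2.43% and 1.54% with OVOL1, and 4.42% and 2.93% with OVOL2. GATA2, which binds prostate enhancers with FOXA1, was 13.8 FPKM in PC3-EMT14, 15.7 in PC3-Epi, 7.65 in PC3-EMT14-OVOL1 and 8.14 in PC3-EMT14-OVOL2.

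HOXB13, the homeobox factor that marks prostate and distal colon, separated from FOXA1. HOXB13 was 89.8 FPKM in PC3-EMT14, 22.2 in PC3-Epi, 67.6 in PC3-EMT14-OVOL1 and 31.7 in PC3-EMT14-OVOL2. Its log2 ratio to PC3-EMT14 was -2.02 in PC3-Epi, -0.38 with OVOL1 and -1.45 with OVOL2. Between the OVOL lines it was lower with OVOL2, at -1.08. Among the 24 cofactors, 1 was past 2-fold in that comparison, where 1.9% of all entries over the floor were higher and 1.17% lower with OVOL2.

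FOLH1 encodes a membrane carboxypeptidase that is the target of prostate imaging ligands. Its entry covers chr11:49168187-49230222 on the minus strand of hg19. FOLH1 was 0.305 FPKM in PC3-EMT14, 0.137 in PC3-Epi, 0.0350 in PC3-EMT14-OVOL1 and 0.144 in PC3-EMT14-OVOL2. The highest value was thus in PC3-EMT14, and all 4 were below the floor, so FOLH1 was not counted in any comparison. Of its 5 isoform entries, TCONS_00006619 carried most of the signal, with 0.209, 0.133, 0.0349 and 0.144 FPKM in the same order. The 4 relatives of FOLH1 listed were also under 1 FPKM in every line. The near-identical copy FOLH1B means that reads could be divided between the genes.

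STEAP1 and STEAP2 encode membrane proteins of the STEAP family, whose active members reduce iron and copper, and both are abundant in prostate epithelium. They lie next to each other on the plus strand, at chr7:89783689-89794141 and chr7:89841000-89866992 on hg19. STEAP1 was 21.3 FPKM in PC3-EMT14, 24.6 in PC3-Epi, 17.5 in PC3-EMT14-OVOL1 and 16.8 in PC3-EMT14-OVOL2. STEAP2 was 3.09, 4.14, 3.41 and 3.13 FPKM in the same order. Both were highest in PC3-Epi, and no comparison came near 2-fold. For STEAP1 the log2 ratio to PC3-EMT14 was 0.21 in PC3-Epi, -0.25 with OVOL1 and -0.30 with OVOL2. For STEAP2 it was 0.42, 0.17 and 0.06. Between the OVOL lines STEAP1 differed by -0.05, which turned to 0.02 when FPKM was rescaled to a common sum, and STEAP2 by -0.11.

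Per length, STEAP1 was 6.88 times STEAP2 in PC3-EMT14, 5.93 times in PC3-Epi, 5.13 times in PC3-EMT14-OVOL1 and 5.36 times in PC3-EMT14-OVOL2. The main STEAP2 isoform entry, TCONS_00031942, held between 57.3% and 62.9% of the gene's FPKM. TCONS_00031943 was a minor entry, at 0.0647 FPKM in PC3-EMT14, 0.249 in PC3-Epi and 0 in both OVOL lines. STEAP3, the ferrireductase of erythroid and other cells, was 14.2 FPKM in PC3-EMT14, 18.9 in PC3-Epi, 15.0 in PC3-EMT14-OVOL1 and 13.4 in PC3-EMT14-OVOL2. STEAP4, the androgen- and cytokine-responsive member, differed far more than STEAP1, STEAP2 and STEAP3. STEAP4 was 0.0361 FPKM in PC3-EMT14, 4.37 in PC3-Epi, 1.34 in PC3-EMT14-OVOL1 and 1.11 in PC3-EMT14-OVOL2. The log2 ratios were 6.92, 5.24 and 4.99 against a PC3-EMT14 value close to 0.

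AMACR encodes an enzyme that lets peroxisomes and mitochondria degrade branched-chain fatty acids. Its entry covers chr5:33987091-34008220 on the minus strand of hg19. AMACR was 9.82 FPKM in PC3-EMT14, 5.45 in PC3-Epi, 5.48 in PC3-EMT14-OVOL1 and 5.90 in PC3-EMT14-OVOL2. PC3-EMT14 was thus highest, and the other 3 lines were close to each other. AMACR was 1.80-fold lower in PC3-Epi, 1.76-fold lower with OVOL1 and 1.61-fold lower with OVOL2, each under the 2-fold rule. Because the 3 ratios share the PC3-EMT14 samples, they are not separate observations. The OVOL lines differed from each other by 0.12 on the log2 scale.

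The main AMACR isoform entry, TCONS_00027138, was 5.45 FPKM in PC3-EMT14, 3.09 in PC3-Epi, 2.85 in PC3-EMT14-OVOL1 and 2.35 in PC3-EMT14-OVOL2. TCONS_00027139 was 2.18, 0.726, 1.13 and 1.36 FPKM in the same order. TCONS_00027142 was 1.91, 1.33, 1.33 and 1.98 FPKM. The first entry was thus lowest with OVOL2, the second lowest in PC3-Epi, and the third was not lower with OVOL2. TCONS_00027139 was 3.00-fold lower in PC3-Epi and TCONS_00027138 2.25-fold lower with OVOL2 than in PC3-EMT14, so these entries were past 2-fold where the gene's total was not. The paper lists an AMACR isoform as lower with OVOL2, at 5.29 in PC3-EMT14 and 2.35 with OVOL2. These are the values of TCONS_00027138 in that comparison. The share of TCONS_00027138 was 55.5% in PC3-EMT14, 56.6% in PC3-Epi, 52.1% in PC3-EMT14-OVOL1 and 39.9% in PC3-EMT14-OVOL2. None of the 4 gene entries within 500 kb of AMACR reached 1 FPKM.

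Of 13 other genes of branched-chain and peroxisomal fatty acid oxidation, all were over the floor. In PC3-Epi 2 were higher and none lower, with a median log2 ratio of 0.00. Over all gene entries the median was -0.01 in PC3-Epi, -0.00 with OVOL1 and -0.04 with OVOL2. Among those over the floor, 7.37% were higher and 8.34% lower in PC3-Epi, 2.43% and 1.54% with OVOL1, and 4.42% and 2.93% with OVOL2. The genes of this list past 2-fold were few. The genes of this list higher in PC3-Epi were SLC27A2, a very-long-chain fatty acid transporter, at 1.24 FPKM in PC3-EMT14 and 7.97 in PC3-Epi, and ACAA1, a peroxisomal thiolase, at 22.9 and 46.3 FPKM. With OVOL1, SLC27A2 was higher, at 1.22 and 3.69 FPKM, and the median was 0.03. With OVOL2, SLC27A2 was higher, at 1.20 and 4.86 FPKM, ACOX2, the oxidase for branched chains, was lower, at 8.30 and 4.13 FPKM, and the median was -0.16.

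For the wider program, 35 androgen-responsive genes were listed. Between PC3-Epi and PC3-EMT14, 30 were over the floor, of which 7 were higher and 3 lower in PC3-Epi, with a median log2 ratio of 0.29 against -0.01 over all gene entries. With OVOL1, 29 were over the floor, with 2 higher and 1 lower and a median of 0.02 against -0.00. With OVOL2, 30 were over the floor, with 4 higher and 2 lower and a median of 0.16 against -0.04. Between the OVOL lines, 29 were over the floor, with C1orf116 the one past 2-fold and a median of 0.02 against -0.04. Of all entries over the floor, 7.37% were higher and 8.34% lower in PC3-Epi, 2.43% and 1.54% with OVOL1, and 4.42% and 2.93% with OVOL2. Between the OVOL lines, 1.9% of all were higher and 1.17% lower with OVOL2. STEAP4 and C1orf116 were higher and KLK4 was lower in all 3 lines compared with PC3-EMT14. KLK4 passed the floor only through PC3-EMT14, at 1.10, 1.07 and 1.06 FPKM in the 3 comparisons, and STEAP4 only through the other line. The 3 KLK4 calls thus rest on 1 shared group near the floor.

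C1orf116, an androgen-responsive epithelial protein, was 1.49 FPKM in PC3-EMT14, 11.1 in PC3-Epi, 6.09 in PC3-EMT14-OVOL1 and 20.8 in PC3-EMT14-OVOL2, so the OVOL2 line was above PC3-Epi. AZGP1, a secreted zinc-binding glycoprotein, was 0.349, 1.82, 0.658 and 1.04 FPKM in the same order. PMEPA1, a membrane protein that dampens TGF-beta signaling, was 3.00 FPKM in PC3-EMT14, 15.9 in PC3-Epi, 1.79 in PC3-EMT14-OVOL1 and 1.24 in PC3-EMT14-OVOL2. PMEPA1 was therefore higher in PC3-Epi and lower with OVOL2, at log2 ratios of 2.41 and -1.22. SGK1, a steroid-induced kinase, was 2.61, 0.724, 2.47 and 3.84 FPKM. SGK1 was thus counted as lower in PC3-Epi with only PC3-EMT14 over the floor. AZGP1 was counted as higher in PC3-Epi and with OVOL2, each time with PC3-EMT14 under the floor. ALDH1A3, an aldehyde dehydrogenase that makes retinoic acid, was 447 FPKM in PC3-EMT14, 719 in PC3-Epi, 785 in PC3-EMT14-OVOL1 and 991 in PC3-EMT14-OVOL2.

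SPDEF, an ETS factor of luminal cells, was 20.1 FPKM in PC3-EMT14, 45.5 in PC3-Epi, 25.8 in PC3-EMT14-OVOL1 and 20.0 in PC3-EMT14-OVOL2. FKBP5, SLC45A3 and PPAP2A are added after their values were seen. FKBP5, a steroid receptor chaperone, was 5.23, 12.3, 7.09 and 7.13 FPKM, and SLC45A3, the prostate antigen prostein, was 9.58, 21.5, 13.3 and 13.5 FPKM. SPDEF, FKBP5 and SLC45A3 were thus past 2-fold in PC3-Epi and in neither OVOL line. PPAP2A, a lipid phosphatase, was 7.49 FPKM in PC3-EMT14 and 3.74 in PC3-Epi, just past the 2-fold line.

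**Figure D4:**
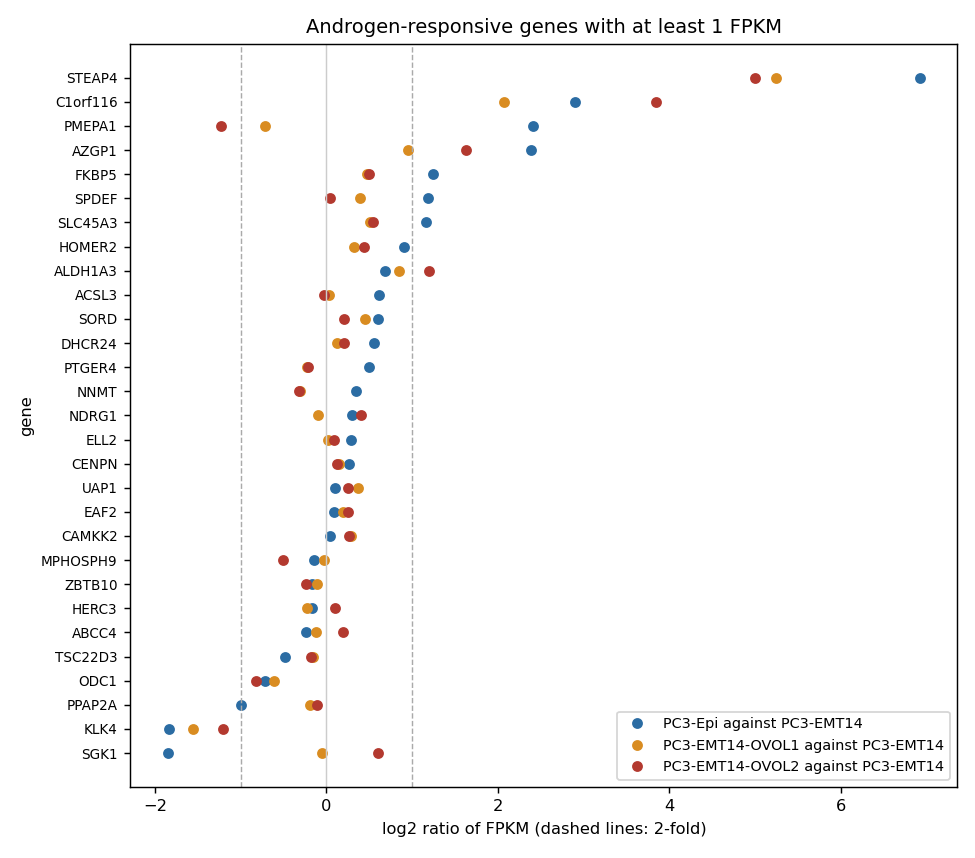
Log2 ratio of FPKM against PC3-EMT14 for 29 of the 30 androgen-responsive genes with at least 1 FPKM in PC3-Epi or PC3-EMT14; each point is the ratio of the authors' pooled values for PC3-Epi or for either OVOL line, and dashed lines mark 2-fold. STEAP4 and C1orf116 lay to the right of 2-fold in all 3 comparisons, KLK4 to the left, and PMEPA1 was on opposite sides in PC3-Epi and PC3-EMT14-OVOL2. KLK4 was over 1 FPKM in PC3-EMT14 alone.

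Markers of prostate cell types were set beside these values. Of 12 luminal markers, 8 were over the floor between PC3-Epi and PC3-EMT14, with 5 higher (KRT8, KRT18, SLC45A3, SPDEF and AZGP1) and 2 lower (HOXB13 and KLK4) and a median log2 ratio of 1.17. With OVOL1, 7 were over the floor, with none higher and 1 lower (KLK4) and a median of 0.40. With OVOL2, 8 were over the floor, with 2 higher (KRT8 and AZGP1) and 2 lower (HOXB13 and KLK4) and a median of 0.29. AZGP1 passed the floor only through the higher line, at 1.82 FPKM in PC3-Epi and 1.04 in PC3-EMT14-OVOL2. KLK4 passed it only through PC3-EMT14 in all 3 comparisons. The medians over all gene entries over the floor were -0.01, -0.00 and -0.04. Of all these entries, 7.37% were higher and 8.34% lower in PC3-Epi, 2.43% and 1.54% with OVOL1, and 4.42% and 2.93% with OVOL2. The luminal keratin KRT8 was 87.7 FPKM in PC3-EMT14, 296 in PC3-Epi, 128 in PC3-EMT14-OVOL1 and 244 in PC3-EMT14-OVOL2. Its partner KRT18 was 117, 351, 156 and 215 FPKM. Among the secreted products in the list, MSMB was at 0 in PC3-EMT14 and at most 0.0836 FPKM elsewhere, and ACPP was at most 0.533 FPKM, while AZGP1 reached 1.82 FPKM in PC3-Epi and KLK4 1.10 FPKM in PC3-EMT14.

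The summed luminal list was between 327 and 739 FPKM, lowest in PC3-EMT14 and highest in PC3-Epi, an order set by the 2 keratins. Without KRT8 and KRT18 the other 10 markers summed to 122 FPKM in PC3-EMT14, 92.6 in PC3-Epi, 109 in PC3-EMT14-OVOL1 and 68.3 in PC3-EMT14-OVOL2, so that PC3-EMT14 was highest. That order was set in turn by 1 gene, HOXB13. HOXB13 made up 89.8 FPKM of the sum in PC3-EMT14, 22.2 in PC3-Epi, 67.6 in PC3-EMT14-OVOL1 and 31.7 in PC3-EMT14-OVOL2. Neither sum therefore describes the luminal markers as a set. Of 8 basal markers, 5 were over the floor. None was past 2-fold in PC3-Epi, ITGB4 and KRT15 were higher with OVOL1, and ITGB4 was higher with OVOL2. The median log2 ratios were -0.20, 0.18 and 0.55 in these 3 comparisons, against -0.01, -0.00 and -0.04 over all gene entries. Of all entries over the floor, 2.43% were higher and 1.54% lower with OVOL1, and 4.42% and 2.93% with OVOL2. In PC3-Epi the shares were 7.37% and 8.34%. ITGB4, an integrin of hemidesmosomes, was 102 FPKM in PC3-EMT14, 125 in PC3-Epi, 209 in PC3-EMT14-OVOL1 and 269 in PC3-EMT14-OVOL2. The summed basal list was between 224 and 389 FPKM, and between 113 and 132 FPKM without its highest gene, ITGB4.

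Of 8 neuroendocrine markers, only ENO2 was over the floor, at 60.6 FPKM in PC3-EMT14, 24.6 in PC3-Epi, 49.3 in PC3-EMT14-OVOL1 and 37.7 in PC3-EMT14-OVOL2, and the other 7 summed to between 0.373 and 0.477 FPKM. Of 14 macrophage markers, only CD68, which many cultured lines express, was over the floor. CD68 was 54.1 FPKM in PC3-EMT14, 13.2 in PC3-Epi, 51.2 in PC3-EMT14-OVOL1 and 57.8 in PC3-EMT14-OVOL2. The other 13 macrophage markers summed to between 0.418 and 0.817 FPKM, and 2 to 4 of the 14 were at 0 in a line.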

How the data were processed

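RNA-seq was done on 10 samples of 4 PC3-derived lines, grouped by their sample labels. Per the labels and the study's methods, paired-end reads were mapped by the authors to the hg19 transcriptome of UCSC, and groups were compared in pairs by Cuffdiff, with upper-quartile scaling and correction for sequence bias and multiply mapped reads. The FPKM values that the authors deposited combine the samples of a group, so 8 tables (genes and isoforms of 4 comparisons) give 1 value per group. The fold change, test statistic, p- and q-value columns hold the authors' own comparisons and were not used. The group codes in the tables were tied to the lines by the compared pairs. The codes of PC3-EMT14 and both OVOL lines share an ending (_II_trim) that the code of PC3-Epi lacks. What the ending stands for is not stated, and whether it goes with a difference in handling was not tested.

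Ratios were formed from the FPKM values within a table, without a pseudocount, and called at 2-fold with at least 1 FPKM in the higher group. No test was possible on pooled values. The study describes the samples of a line as biological replicates, and the labels do not say whether they were separate cultures. The depth per sample is unknown, so no interval or detection limit is given. The ratio and counting steps were tested on simulated data. Promoters came from RefSeq and were aligned with Biopython 1.88. Python 3.11.15, numpy 2.4.6, pandas 2.3.3 and matplotlib 3.10.9 were used.

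The genes and lists were chosen with earlier results of these data known. Genes named were all 8 members, list genes past 2-fold against PC3-EMT14 (up to 6 per list by size) or at 10 FPKM or more in PC3-EMT14, family relatives and neighbours within 500 kb at 1 FPKM or more, and the 3 genes nearest in ratios to TMPRSS2. Genes named at lower levels, to account for a list or a marker, were added after their values were seen. The values of 1 gene of the androgen-responsive and luminal lists, which is counted with them, are not reported here. Alternatives were other folds (1.5, 4), floors, pseudocounts, scalings, isoform sums and the shared group's value from another table.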

Additional observations from a re-analysis of the deposited data

How the results depend on the processing

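The main counts of the 8 genes past 2-fold were 1 in PC3-Epi, 0 with OVOL1, 0 with OVOL2 and 0 between the OVOL lines. At 1.5-fold the counts against PC3-EMT14 became 2 in each of the 3 comparisons, TMPRSS2 and AMACR, among 3915, 1073 and 1851 of all entries (1954, 484 and 904 at 2-fold). With no floor on FPKM, or a floor of 0.1 FPKM, FOLH1 was added, giving 2 in PC3-Epi, 1 with OVOL1, 1 with OVOL2 and 1 between the OVOL lines. The counts over all entries were then 5788, 3383, 3981 and 3049 with no floor, and 3067, 1033, 1570 and 785 at 0.1 FPKM, against 375 between the OVOL lines at the main floor. A 4-fold threshold, a floor of 5 FPKM, pseudocounts of 0.1 and 1 FPKM, centring, rescaling, isoform sums and the shared group's value from another table left the 4 counts as they were. Of 144 log2 ratios of single genes under alternatives, 133 kept direction and side of 2-fold, and 11 moved, those of FOLH1 and, between the OVOL lines, the signs of FOXA1 and STEAP1. Rescaling to a common sum shifted all log2 ratios by -0.13 in PC3-Epi. With no floor, 24 isoform entries are described in place of 13 at 0.1 FPKM or more.

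No paired analysis was possible because the tables hold 1 pooled value per group and carry no replicate number. Leaving out a replicate was not run for the same reason. The depth is unknown, so values near 0 cannot be given a limit, and the isoform shares of TMPRSS2 rest on levels near 1 FPKM.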

Other observations

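Enzymes and transporters of steroid metabolism were looked at as a further group, with 21 genes listed. Between PC3-Epi and PC3-EMT14, 11 were over the floor, with 2 higher (SULT2B1 and STS) and 2 lower (HSD17B2 and HSD17B3) and a median log2 ratio of -0.29 against -0.01 over all gene entries. HSD17B2, which inactivates testosterone to androstenedione, was 22.1 FPKM in PC3-EMT14, 0.211 in PC3-Epi, 11.6 in PC3-EMT14-OVOL1 and 7.14 in PC3-EMT14-OVOL2. HSD17B3, which catalyses the reverse step in the testis, was 1.91, 0.103, 0.651 and 0.310 FPKM in the same order. Both were thus highest in PC3-EMT14 and lowest in PC3-Epi, with the OVOL lines between. STS, which releases steroids from their sulfates, was 2.80 FPKM in PC3-EMT14 and 6.09 in PC3-Epi, and 2.71 in PC3-EMT14 and 6.10 in PC3-EMT14-OVOL2 in the comparison with OVOL2. SULT2B1, a sulfotransferase for cholesterol and other sterols, was 0.253 FPKM in PC3-EMT14 and 6.89 in PC3-Epi. SULT2B1 thus passed the floor only through PC3-Epi, and HSD17B2 and HSD17B3 only through PC3-EMT14 in that comparison. HSD17B3 passed it only through PC3-EMT14 in both OVOL comparisons too. The counts and medians therefore do not describe a shift of these genes as a group. With OVOL1, 10 were over the floor, with 0 higher and 1 lower (HSD17B3) and a median of -0.10 against -0.00. With OVOL2, 10 were over the floor, with 1 higher (STS) and 2 lower (HSD17B2 and HSD17B3) and a median of -0.23 against -0.04. Of all entries over the floor, 7.37% were higher and 8.34% lower in PC3-Epi, 2.43% and 1.54% with OVOL1, and 4.42% and 2.93% with OVOL2. Between the OVOL lines 9 were over the floor and none of these 9 was past 2-fold, where 1.9% of all were higher and 1.17% lower. HSD17B3 was under the floor there, at 0.644 FPKM with OVOL1 and 0.310 with OVOL2, and was not counted. These are pooled values with no test.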
